A study of Mus musculus with 7 samples.

Results

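The Dlx homeobox genes Dlx1, Dlx2, Dlx3, Dlx4, Dlx5 and Dlx6 were followed in mouse skin tumours that carried BRAFV600E alone or BRAFV600E together with forced SOX2. All 6 named members were present among the 55423 features of the count table, and all 6 were among the 24433 genes with enough reads to be tested. They were chosen by name with their pattern between these tumours already known, so their levels and differences are given as a description and carry no p-value.

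Bulk tumour RNA was sequenced from mice in which Cre recombinase, made tamoxifen-inducible and driven by the involucrin promoter (Ivl), recombined DNA in involucrin-expressing skin cells after tamoxifen was put on the skin. Ivl:BRAFV600E tumours carried the activated kinase alone, and Ivl:BRAFV600E-SOX2LSL tumours also carried a SOX2 transgene released by the same recombination. Mice of both genotypes were 7 to 10 weeks old at induction, and tumours labelled as cutaneous squamous cell carcinoma were taken at clinical endpoint. Of these tumours, A, B and C (Ivl:BRAFV600E) were compared with tumours D, E and F (Ivl:BRAFV600E-SOX2LSL). The first group held 2 female mice and 1 male mouse, 2 of them with a tdRFP reporter allele, and the second held 1 female and 2 male mice with no reporter listed. The body site of each tumour is not given in the sources used here, and the time from induction to endpoint cannot be told apart from the genotype.

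Dlx genes encode transcription factors that bind DNA through a homeodomain and are the relatives of the Distal-less gene of the fly. In mammals they lie as convergent pairs, each pair transcribed towards its own middle, and partners often share enhancers and sites of expression. Dlx3 is the member best known in the epidermis and hair follicle, where it acts in keratinocyte differentiation, whereas the other members are known mainly from jaw, tooth, limb, bone, placenta and forebrain development.

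The read totals ranged from 23565432 to 31152826 per tumour, and 3 reads corresponded to 0.0839 to 0.143 CPM (counts brought to a common library size with the TMM factors of edgeR). Sox2, the induced gene, was read at 0.716, 0.508 and 0.238 CPM in tumours A, B and C. In tumours D, E and F it was read at 182, 155 and 158 CPM (log2 fold change 8.35, SE 0.34, edgeR adjusted p = 8.1e-04). These levels match the genotype assigned to each column from its name and the listed mouse identifiers. Over all tested genes the median log2 fold change was 0.04, and 954 genes (3.9%) passed an edgeR adjusted p of 0.05, 585 higher and 369 lower with SOX2. The keratinocyte list had summed levels of 33975 to 60398 CPM in Ivl:BRAFV600E and 18577 to 42134 CPM in Ivl:BRAFV600E-SOX2LSL tumours, so the epithelial label held in every tumour.

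The coding sequence of the homeobox shows how far the 6 members can be told apart by their reads. Over its 180 bases, the 15 pairs of members were 66.1% to 81.7% identical, with Dlx2 closest to Dlx3 at 81.7% and Dlx6 at 66.1%. The last 60 bases, which include the codons of the DNA-contacting helix, are given here from the GENCODE transcripts of mouse build GRCm38, with capitals at each base that differs from Dlx3:
Dlx1: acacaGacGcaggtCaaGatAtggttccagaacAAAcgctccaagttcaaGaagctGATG
Dlx2: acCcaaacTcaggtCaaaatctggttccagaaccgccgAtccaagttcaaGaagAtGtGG
Dlx3: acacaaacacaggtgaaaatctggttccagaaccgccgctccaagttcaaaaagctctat
Dlx4: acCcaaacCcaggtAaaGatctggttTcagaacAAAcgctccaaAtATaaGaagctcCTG
Dlx5: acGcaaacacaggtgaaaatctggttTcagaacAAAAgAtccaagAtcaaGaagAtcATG
Dlx6: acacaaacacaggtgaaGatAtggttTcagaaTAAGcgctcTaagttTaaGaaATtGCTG
Dlx2 had 9 differences in this stretch, Dlx1 and Dlx5 had 13 each, Dlx4 had 15 and Dlx6 had 16. The longest run of bases that any pair of members shared over the whole transcripts was 23 bases, against sequenced reads of 150 bases. No full-length read would thus match the transcripts of more than 1 member exactly.

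The table of 300-base promoters from RefSeq (GRCm38.p6, from 250 bases before to 50 bases after a start) held 2 of the 6 members, Dlx1 and Dlx2, and the opposite-strand transcripts Dlx6os1 (at 2 starts), Dlx6os2 and Dlx4os. The promoters of Dlx2, the member with the largest ratio of group means, and of Dlx6os1, the opposite-strand transcript that passed the test, are shown on the strand of the gene. For Dlx6os1 the start nearer its annotated 5′ end is shown. The Dlx2 window lies at chr2:71546705-71547004 on the minus strand and the Dlx6os1 window at chr6:6869484-6869783 on the minus strand. Capitals mark CATTGT (the core letters bound by SOX factors), TAATTA or TAATTG (letters bound by many homeodomains), searched on both strands:
Dlx2: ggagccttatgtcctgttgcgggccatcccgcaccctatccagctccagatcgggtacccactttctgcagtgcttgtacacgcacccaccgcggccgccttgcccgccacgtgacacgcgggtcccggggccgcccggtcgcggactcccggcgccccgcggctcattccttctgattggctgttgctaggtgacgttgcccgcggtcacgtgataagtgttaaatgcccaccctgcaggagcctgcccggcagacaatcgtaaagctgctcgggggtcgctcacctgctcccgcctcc
Dlx6os1: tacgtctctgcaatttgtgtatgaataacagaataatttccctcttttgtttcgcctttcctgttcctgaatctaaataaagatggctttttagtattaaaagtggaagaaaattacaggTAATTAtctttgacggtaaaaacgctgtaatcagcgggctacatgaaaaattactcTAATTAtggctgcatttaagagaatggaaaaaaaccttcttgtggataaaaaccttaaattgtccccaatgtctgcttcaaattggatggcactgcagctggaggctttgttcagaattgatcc
The Dlx2 window had a GC content of 66.3% with 29 CpG, and the Dlx1 window (chr2:71529195-71529494, plus strand) had 69.3% with 27 CpG, against medians of 52.7% and 7 over all 32851 promoters in the table. Neither of these windows held any of the 3 motifs. The printed Dlx6os1 window, at 35.7% GC and 5 CpG, held TAATTA at 2 places, a motif found in 5.29% of all promoters, while CATTGT was found in 12.6% and TAATTG in 8% of them. The other Dlx6os1 window (chr6:6861634-6861933, minus strand) held TAATTA and TAATTG at 1 place each, and those of Dlx6os2 and Dlx4os held 0 matches. A match is a string of letters, and no binding was measured.

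All 6 members had a lower mean and a negative log2 fold change in Ivl:BRAFV600E-SOX2LSL against Ivl:BRAFV600E tumours, a sign that 47.2% of all tested genes shared. For 5 of the 6, Dlx1, Dlx2, Dlx3, Dlx5 and Dlx6, each of tumours D, E and F lay below each of tumours A, B and C, a non-overlap in the lower direction that 16% of all tested genes showed, while 18.2% did not overlap in the higher direction. Of the 6 members 1, Dlx2, was among the genes passing the edgeR threshold in the lower direction, which 1.51% of all tested genes did, and 0 passed in the higher direction, which 2.39% did. The contrast itself chose the members, and nothing is read from these counts. The median log2 fold change of the members was -1.96. As tumour RNA was measured in bulk, fewer cells of a Dlx-expressing type and less Dlx RNA per cell cannot be told apart.

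**Figure D1:**
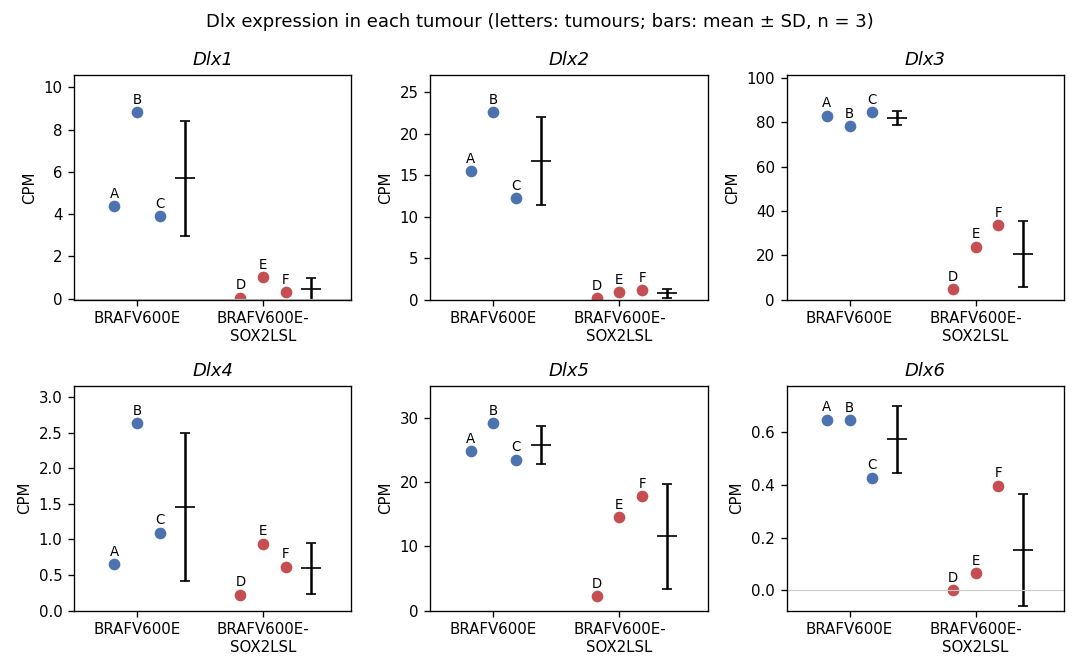
CPM of each Dlx gene (vertical axes, linear and separate for each gene) in tumours A to C (blue, Ivl:BRAFV600E) and D to F (red, Ivl:BRAFV600E-SOX2LSL), with black bars for the mean ± SD of 3 tumours. Dlx3 sits between 78.3 and 84.4 CPM in the blue tumours and between 4.62 and 33.4 CPM in the red ones, and Dlx4 is the member whose groups overlap.

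Dlx3 (chromosome 11, 95120119 to 95125296, plus strand, GRCm38), a factor of epidermal differentiation, had the highest level of the family per union exon length. It was read at 82.9, 78.3 and 84.4 CPM in tumours A, B and C, a spread of 1.08-fold, and at 4.62, 23.8 and 33.4 CPM in tumours D, E and F, a spread of 7.24-fold. The Ivl:BRAFV600E tumours were close to each other, whereas tumour D was far below the other tumours with SOX2. The means differed 3.97-fold (log2 fold change -1.99, SE 0.60, 95% interval -3.41 to -0.57). The highest tumour with SOX2 reached 0.427 of the lowest without it.

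Dlx4 (chromosome 11, 95140447 to 95146263, minus strand), known from placenta and blood cells, lies 15.151 kb from Dlx3 and was far less abundant. It was read at 0.648, 2.63 and 1.09 CPM without SOX2 and at 0.224, 0.939 and 0.614 CPM with SOX2, from 8 to 57 reads per tumour. Tumour E lay above tumour A, so the groups overlapped, and the interval of the log2 fold change of -1.29 (SE 0.68) ran from -2.90 to 0.32. Per length, Dlx4 stood at 0.00624 to 0.0268 of the Dlx3 level in tumours A to C and at 0.0146 to 0.0387 in tumours D to F, ranges that overlap.

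Dlx2 (chromosome 2, 71543408 to 71546754, minus strand), a factor of forebrain interneurons and the first branchial arch, had the largest ratio of means in the family. In CPM the means of Dlx3 lay further apart. Without tumour E the log2 fold change of Dlx1 (-4.93) exceeded that of Dlx2 (-4.70) in size. Tumours A, B and C held 15.5, 22.6 and 12.2 CPM, from 257 to 489 reads. Tumours D, E and F held 0.196, 0.939 and 1.12 CPM, from 7 to 31 reads. The highest tumour with SOX2 was at 0.0917 of the lowest without it, and the means differed 22.3-fold (log2 fold change -4.49, SE 0.60, interval -5.90 to -3.09).

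Dlx1 (chromosome 2, 71528113 to 71533981, plus strand), the partner of Dlx2 at a gap of 9.427 kb and active in the same forebrain and arch cells, was read at 4.37, 8.82 and 3.90 CPM without SOX2. With SOX2 it was read at 0.0560, 1.04 and 0.325 CPM, from 2, 32 and 9 reads. Tumour D thus lay under the level of 3 reads, tumour E was the highest of its group, and the groups did not overlap. The means differed 12.1-fold (log2 fold change -3.59, SE 0.85, interval -5.59 to -1.58). The ratio of Dlx1 to Dlx2 per length was 0.149, 0.207 and 0.169 in tumours A, B and C and 0.151, 0.584 and 0.154 in tumours D, E and F. The ratios of tumours D and F rest on 2 and 9 reads of Dlx1, and that of tumour E, the highest, on 32. Exons of Dlx1 and of its antisense transcript Dlx1as share 335 bases, 6.21% of the exon length of Dlx1 and 20.6% of that of Dlx1as, and the sources used here do not state whether the counting used strand.

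Dlx5 (chromosome 6, 6877805 to 6882085, minus strand), a factor of jaw, limb and bone formation, was the second most abundant member per union exon length. It was read at 24.8, 29.2 and 23.5 CPM in tumours A, B and C and at 2.27, 14.6 and 17.8 CPM in tumours D, E and F. The groups did not overlap, but tumour F reached 0.757 of tumour C, and tumour D was 7.86-fold below tumour F. The means differed 2.24-fold, and the interval of the log2 fold change of -1.17 (SE 0.62) ran from -2.63 to 0.30.

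Dlx6 (chromosome 6, 6863334 to 6868568, plus strand), which acts together with Dlx5 in the lower jaw, lies 9.237 kb from it and had the fewest reads. Tumours A, B and C gave 19, 14 and 9 reads (0.648, 0.647 and 0.428 CPM) and tumours D, E and F gave 0, 2 and 11 reads (0, 0.0648 and 0.397 CPM). Tumours D and E lay below the level of 3 reads and tumour F reached 0.929 of tumour C, so the separation of the groups rests on a handful of reads (log2 fold change -1.94, SE 1.03, interval -4.35 to 0.48). Per length, Dlx6 was at 0.0173 to 0.0249 of Dlx5 without SOX2 and at 0, 0.00423 and 0.0213 of it in tumours D, E and F.

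Scaled to exon length, the family summed to 49.5, 53.6 and 48.3 CPM per kb in tumours A, B and C and to 2.92, 16.4 and 21.5 CPM per kb in tumours D, E and F. The order of the mean levels per kb in Ivl:BRAFV600E tumours was Dlx3 (31.4 ± 1.22, SD, n = 3), Dlx5 (11.4 ± 1.32), Dlx2 (5.87 ± 1.86), Dlx1 (1.06 ± 0.504), Dlx4 (0.446 ± 0.319) and Dlx6 (0.242 ± 0.0534). The tumours' values of Dlx3, Dlx5, Dlx2 and Dlx1 did not overlap from each to the next, whereas those of Dlx1 and Dlx4 did, as did those of Dlx4 and Dlx6. Within each of tumours A, B and C, Dlx1 still lay above Dlx4 (0.809 and 0.198, 1.64 and 0.805, 0.722 and 0.334). Dlx4 lay below Dlx6 in tumour A and above it in tumours B and C. In Ivl:BRAFV600E-SOX2LSL tumours the order was Dlx3 (7.91 ± 5.63), Dlx5 (5.10 ± 3.62), Dlx2 (0.263 ± 0.172), Dlx4 (0.181 ± 0.11), Dlx1 (0.0876 ± 0.0939) and Dlx6 (0.0648 ± 0.0897). There the values of Dlx3 and Dlx5 overlapped, and so did those of the 4 lowest members from each to the next.

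The make-up of the family differed between the groups as well as its sum. By union exon length Dlx3 was the main member in every tumour, though with SOX2 its lead over Dlx5 depended on the length used. Its share of the family's CPM per kb was 64.3%, 56.1% and 67.1% in tumours A, B and C. In tumours D, E and F it was 60.7%, 55.7% and 59.7%. Dlx5 made up 22.2%, 24.1% and 21.5% without SOX2 and 34.3%, 39.2% and 36.6% with it. Dlx2 made up 11%, 14.8% and 8.86% without SOX2 and 2.35%, 2.00% and 1.82% with it. The shares of Dlx3 overlapped between the groups, those of Dlx5 were higher in each tumour with SOX2, and those of Dlx2 were lower in each. Tumour D, with the lowest sum, had nearly the same make-up as tumours E and F. These shares come from the values that chose the members and are a description.

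**Figure D2:**
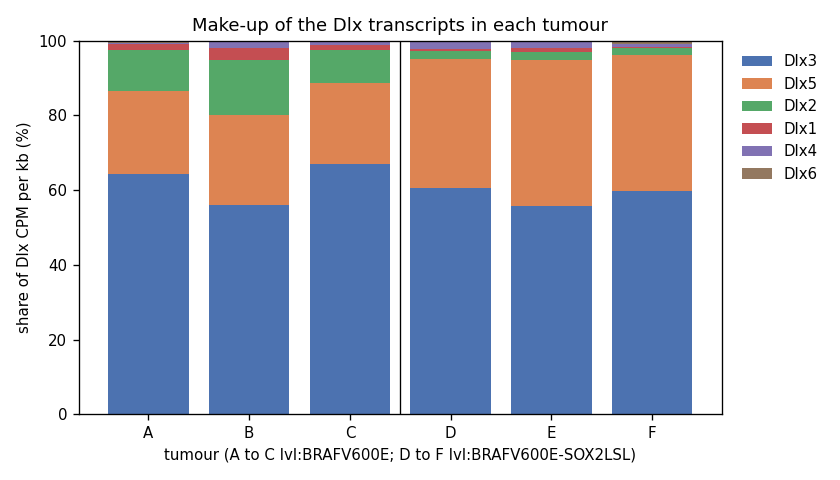
Share of each Dlx gene in the family's summed CPM per kb of exon (vertical axis, percent) in each tumour (horizontal axis), with a line between the genotypes. The Dlx5 segment takes 21.5% to 24.1% in tumours A to C and 34.3% to 39.2% in D to F, while the Dlx2 segment is 8.86% to 14.8% and 1.82% to 2.35%.

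The transcripts on the opposite strands of the Dlx pairs were not among the chosen members and were tested. Their list was nevertheless chosen with earlier results of these data known, and they lie at the same loci as the members. Dlx6os1, a long noncoding RNA that covers Dlx6 on the other strand and starts between Dlx6 and Dlx5 (chromosome 6, 6820189 to 6871592, minus strand), was read at 1.36, 1.76 and 1.62 CPM without SOX2 and at 0.0839, 0.0648 and 0.181 CPM with SOX2. It fell by 3.82 on the log2 scale (SE 0.47, edgeR adjusted p = 0.0168), from 34 to 40 reads to 2 to 5 reads per tumour. The call held in 9 of 13 alternatives (adjusted p 1.3e-07 to 0.0914) and was lost without tumour A (0.0914), B (0.0666), C (0.0546) or E (0.0522). Dlx1as was read at 0.887, 0.370 and 1.14 CPM and at 0.112, 0.389 and 0.253 CPM, groups that overlap (log2 fold change -1.67, SE 0.62, adjusted p = 0.154). Dlx4os had a log2 fold change of -0.86 (SE 0.66, adjusted p = 0.441). Dlx6os2 had 1 read in all, and a second short feature named Dlx6os1 had 0 reads in the 6 tumours.

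Genes around the pairs were compared to see whether the difference extended along the chromosome. Within 250 kb of Dlx1 and Dlx2, 0 of 8 tested genes passed the edgeR threshold, Dlx1as included, while 5 had an unadjusted p under 0.05 and DESeq2 and limma-voom called 3 each. The nearest tested coding gene on each side was Metap1d, a methionine aminopeptidase 2.919 kb away, with a log2 fold change of -0.78 (SE 0.17, adjusted p = 0.0538), and Itga6, the hemidesmosomal integrin subunit 199 kb away, with 0.67 (SE 0.17, adjusted p = 0.0702). Metap1d passed the threshold in 4 of 13 alternatives, DESeq2 and limma-voom among them, and Itga6 in these 2 alone, so whether they passed depended on the tool and, for Metap1d, also on the scaling or filter.

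Around Dlx3 and Dlx4, 2 of 13 tested genes passed, both higher with SOX2. Ppp1r9b, which encodes the actin-binding spinophilin, rose by a log2 fold change of 1.04 (SE 0.16, adjusted p = 0.0256), and Pdk2, a pyruvate dehydrogenase kinase, by 2.14 (SE 0.43, adjusted p = 0.0445). The first call was lost with sex as a covariate (adjusted p = 0.057) and without tumour A (0.126), B (0.0844), E (0.0627) or F (0.0549). The second was lost with sex as a covariate (0.0765) and when any 1 tumour but D was left out (0.0625 to 0.167). The nearest tested coding gene on each side, Itga3 (1.48, SE 0.49, adjusted p = 0.121) and Tac4 (0.71, SE 0.65, adjusted p = 0.527), did not pass. Itga3 was called by DESeq2 (adjusted p = 0.0202), and its log2 fold change was 0.63 without tumour D. Both called genes lie on the side of Itga3, Pdk2 at 78.8 kb and Ppp1r9b at 113 kb from the pair. Around Dlx5 and Dlx6, 3 genes were tested and Dlx6os1 was the 1 that passed, while Sdhaf3 had a log2 fold change of -0.31 (SE 0.28, adjusted p = 0.511). The 2 coding neighbours called by edgeR, both near Dlx3 and Dlx4, were thus higher in the tumours in which the Dlx genes were lower. Uncalled neighbours without overlap went both ways over the 3 regions. Among them Metap1d (-0.78) and Slc25a12 (-0.79) were lower, and Itga6 (0.67) and Itga3 (1.48) were higher.

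**Figure D3:**
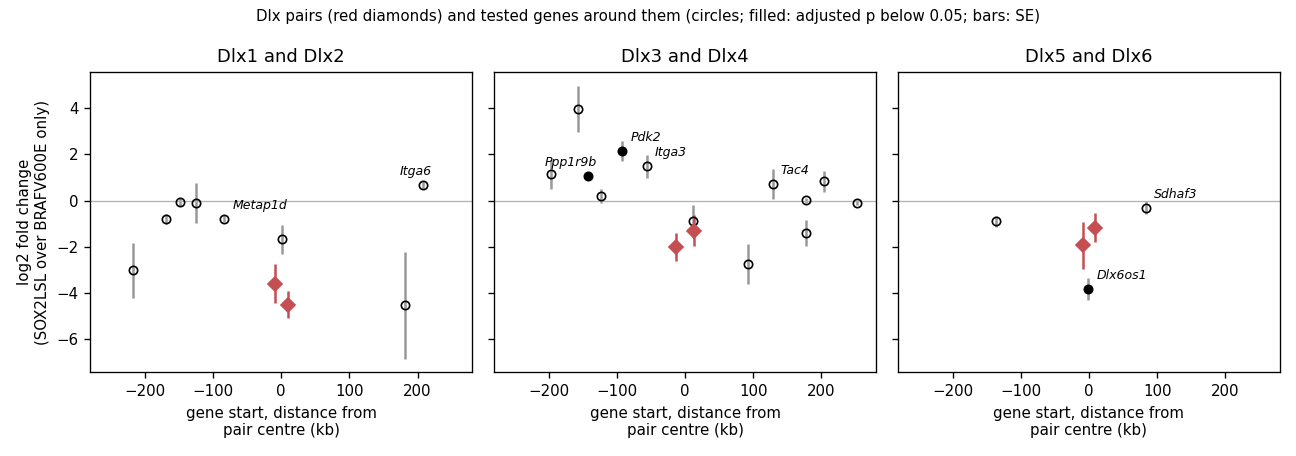
Log2 fold change of Ivl:BRAFV600E-SOX2LSL over Ivl:BRAFV600E (vertical axis, bars are SE) against the distance of each gene's start from the centre of the Dlx pair in kb (horizontal axis). Red diamonds are Dlx genes, drawn without a test, and filled circles (Ppp1r9b, Pdk2 and Dlx6os1) passed an edgeR adjusted p of 0.05.

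Genes known to act upstream of Dlx genes were examined next, from a list of BMP, endothelin, FGF and WNT signalling genes and epidermal factors. Of 16 genes 15 were tested and 0 passed in either direction, and their log2 fold changes had a median of 0.10. That median covers shifts both ways. Without overlap 2 were lower and 5 higher, against 16% and 18.2% of all tested genes. With edgeR's unadjusted p under 0.05 there were 7 (6280 among all 24433 genes), and DESeq2 called 4 higher and 2 lower and limma-voom 1 each way. Trp63, the epithelial master factor that activates Dlx3, was read at 261, 297 and 287 CPM without SOX2 and at 281, 321 and 302 CPM with it (log2 fold change 0.10, SE 0.13, edgeR adjusted p = 0.662).

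Homeobox relatives of the Dlx genes in the NK-like class were tested for 8 of 14 genes. Of these, edgeR called 1 lower and 0 higher at its threshold (median log2 fold change -0.50). The log2 fold change was negative for 5 and positive for 3. Without overlap 3 were lower and 1 higher, against 16% and 18.2% of all tested genes. Emx2, a patterning factor of forebrain, kidney and urogenital tract, had 9.62, 4.43 and 7.36 CPM without SOX2 and 0.336, 0.777 and 0.686 CPM with it. It fell by 3.57 on the log2 scale (SE 0.44, edgeR adjusted p = 0.0167), a call that held in 11 of 13 alternatives and was lost without tumour A (adjusted p = 0.0914) or C (0.0546). Msx1 (-0.37, SE 0.40, adjusted p = 0.589) and Msx2 (-0.62, SE 0.33, adjusted p = 0.283), which share arch and limb functions with Dlx genes and were picked for that after their values were seen, did not pass.

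Lists for tissues in which Dlx genes act were counted in the same way. In epidermal terminal differentiation, 0 of 12 tested genes passed the threshold, although all 12 had a negative log2 fold change, 9 did not overlap between the groups (16% of all tested genes did not overlap in this direction) and the median was -1.65. In that list 8 genes had an unadjusted edgeR p under 0.05, and 6 were called lower by DESeq2 and 3 by limma-voom, with 0 higher by either. Over all genes DESeq2 called 7.76% lower and 10.5% higher, and limma-voom 3.97% and 4.8%. Krt1, the suprabasal keratin with the highest mean of that list, had a log2 fold change of -2.24 (SE 0.82, edgeR adjusted p = 0.149). In the hair list, 1 of 11 tested genes passed, with a median of -1.18. That gene, Hoxc13, a factor of hair and nail, was read at 16.7, 11.7 and 16.3 CPM and at 1.09, 2.56 and 2.49 CPM (log2 fold change -2.86, SE 0.36, adjusted p = 0.0175), a call lost without tumour A (0.0951), B (0.0573) or C (0.059).

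In the bone and cartilage list, 0 of 12 genes passed (median -1.07, or -0.71 with a gene at 0 in a whole group set to its bound of 3 reads per tumour), and Sox9, its most abundant gene, had -0.48 (SE 0.27, adjusted p = 0.297). There 1 gene had an unadjusted p under 0.05, and DESeq2 and limma-voom called 0. In the craniofacial list, 0 of 10 tested genes passed, with a median of 1.16 that became -0.03 with 2 such genes at their bound. Pax9, its most abundant gene and a tooth and palate factor, had 2.38 (SE 0.64, adjusted p = 0.0797). There 5 genes had an unadjusted p under 0.05, and DESeq2 called 3 higher and limma-voom 0. Of 4 tested interneuron genes, 1 passed, Gad2, a GABA-synthesising enzyme that had 0 reads in tumours A to C and 0.364, 1.43 and 0.686 CPM in tumours D to F, at least 6.46-fold higher by the level of 3 reads per tumour (adjusted p = 0.0468). This call was lost with sex as a covariate (0.124) and when any 1 tumour but D was left out (0.087 to 0.155).

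In the limb list, 2 of 11 tested genes passed, both lower with SOX2 (median -3.50, or -3.34 with bounds). Krt9, the keratin of palm and sole skin, was read at 13.6, 390 and 378 CPM in tumours A, B and C and at 0.0280, 0.0972 and 0.0361 CPM in tumours D, E and F (edgeR adjusted p = 0.0209). Hoxa13, a factor of the distal limb, was read at 1.19, 0.739 and 0.998 CPM in tumours A, B and C and had 0 reads in the others, at least 10.1-fold lower by the level of 3 reads per tumour (adjusted p = 0.0238). The Krt9 call was lost with limma-voom (0.351) and without tumour B (0.0695), C (0.0595), E (0.0625) or F (0.0559). The Hoxa13 call was lost with sex as a covariate (0.0661) and without tumour A (0.123), B (0.0815) or C (0.0669). Of the 11 genes 7 had a negative and 4 a positive log2 fold change, among them Pitx1, a hindlimb factor named after its values were seen, at 0.44 (SE 0.16, adjusted p = 0.145) and higher without overlap. Unadjusted, 8 had an edgeR p under 0.05, and DESeq2 called 5 lower and limma-voom 2. Krt9 and Hoxa13 were lower in the tumours in which the Dlx genes were lower, and their part in the Dlx difference was not tested.

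**Figure D4:**
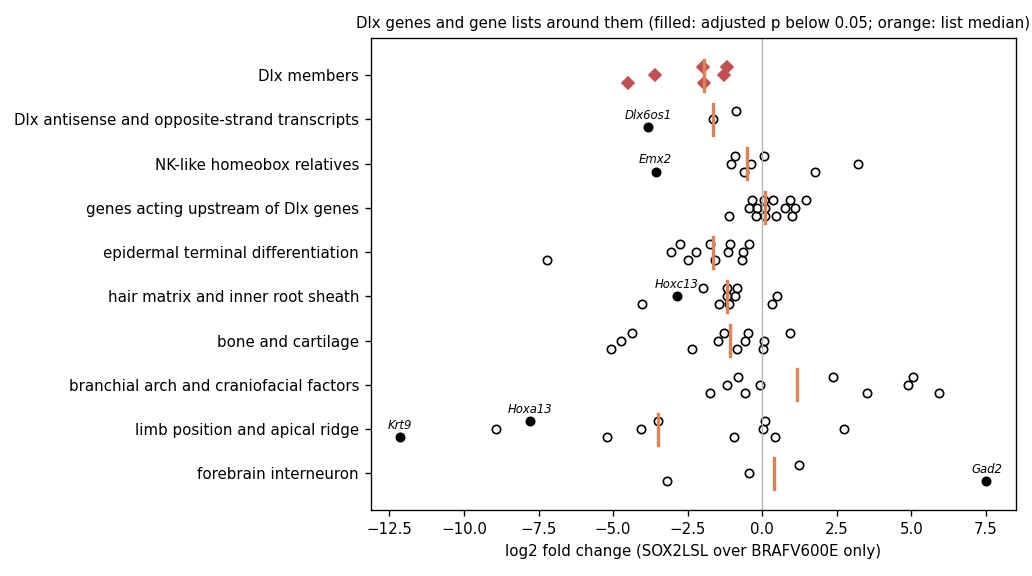
Log2 fold change of Ivl:BRAFV600E-SOX2LSL over Ivl:BRAFV600E (horizontal axis) for the Dlx genes (red diamonds, drawn without a test) and for the genes of each list (rows, circles, filled where edgeR's adjusted p was below 0.05), with the median of the fitted values in orange. The Dlx median lies at -1.96, the terminal differentiation median at -1.65 with 0 filled circles and the median of the upstream genes at 0.10.

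Levels of other cell types were compared beside the Dlx difference. Of 8 keratinocyte markers 0 passed and the median was -0.18 on the log2 scale. Krt14, the most abundant, had -0.65 (SE 0.50, edgeR adjusted p = 0.447). Unadjusted, 6 keratinocyte markers had a p under 0.05, and DESeq2 called 1 higher and 2 lower and limma-voom 1 higher. All 7 skeletal muscle markers were higher with SOX2 without overlap and 6 of them passed, with a median of 8.86 over the 7, from sums of 2.45 to 5.94 CPM to sums of 216 to 1024 CPM. Acta1, the skeletal actin, rose by a log2 fold change of 9.31 (SE 0.95, adjusted p = 0.00927), a call lost without tumour A (0.087) or B (0.0573). Of the 6 muscle calls, 6 held with DESeq2, 5 with sex as a covariate and 3 with limma-voom. Without tumour A or B 0 held, without C 2 held and without E 4 held. Leukocyte markers had sums of 33.0 to 46.2 CPM without SOX2 and 63.6 to 113 CPM with it, and 1 of 5, Ptprc, passed (log2 fold change 1.3, SE 0.27, adjusted p = 0.0483). It passed in 5 of 13 alternatives and was lost with DESeq2 size factors (0.0501), upper-quartile scaling (0.051), sex as a covariate (0.0775) and when any 1 tumour but D was left out (0.0666 to 0.175). In the fibroblast (6 genes, median 1.08), melanocyte (5, 1.08), Schwann cell (5, -0.09) and endothelial (4, 0.09) lists 0 genes passed, and 1, 1, 1 and 2 genes had an unadjusted p under 0.05, while DESeq2 called 1, 0, 1 and 1 and limma-voom 1, 0, 0 and 1. 

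Each Dlx gene was also set against epithelial genes of the same tumour, a comparison added after the values were seen. Per 1000 Trp63 CPM, Dlx3 stood at 318, 264 and 294 in tumours A, B and C and at 16.4, 74.3 and 111 in tumours D, E and F. The log2 ratio of the means was -2.12 for Dlx3, -4.60 for Dlx2, -3.74 for Dlx1, -2.02 for Dlx6, -1.40 for Dlx4 and -1.29 for Dlx5. Dlx3 gave -2.27 against Cdh1 and -2.37 against Krt5. The part of muscle and leukocyte RNA in the Dlx difference was not tested. Against Krt10, the keratin of cells that have left the basal layer, the comparison gave other directions. Per 1000 Krt10 CPM, Dlx3 stood at 2.87, 2.15 and 2.65 in tumours A, B and C and at 10.9, 5.97 and 4.64 in tumours D, E and F, so its direction turned (log2 ratio of the means 1.48). It also turned for Dlx4 (2.71) and Dlx5 (2.25). For Dlx6 (0.41) the groups overlapped, with tumour D at 0 and the sign resting on the 11 reads of tumour F, while Dlx1 (-0.24) and Dlx2 (-0.86) stayed lower with overlapping groups. Krt10 itself was read at 28863, 36342 and 31849 CPM without SOX2 and at 425, 3994 and 7214 CPM with it (log2 fold change -3.06, SE 0.88, edgeR adjusted p = 0.0935), with tumour D the lowest as for each Dlx gene.

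Across the 6 tumours the members followed each other, with Pearson r of log2 CPM from 0.65 (Dlx4 and Dlx6) to 0.97 (Dlx3 and Dlx5, and Dlx1 and Dlx2). These points share the 2 genotypes and the libraries, and the values are a description. Among 14430 genes with a mean of at least 1 CPM, the 5 most like Dlx3 were Aadacl2, Grhl1, Cds1, Camk1d and Mtx1 (r 0.997 to 0.999). For Dlx2 they were Ecpas, Acsbg1, Hopx, Sbsn and Rars, and for Dlx1 they included Gm6211, Plekhf2, Myo5a and Fabp5l2. For Dlx5 they were Mon1a, Zbtb21, Ppfia3, Mrpl51 and Nyx, and for Dlx4 Smtnl2, Neat1, Snx15, Lamtor1 and Rnh1 (r 0.983 to 0.995). Dlx6 had a mean under 1 CPM and was not given such a list. Grhl1, an epidermal barrier factor, had a log2 fold change of -0.84 and Sbsn, a suprabasal secreted protein, had -1.97. By Spearman's rho over 6 tumours, 374, 328, 74, 53 and 328 genes were tied at 1 with Dlx1, Dlx2, Dlx3, Dlx4 and Dlx5, so ranks cannot order the genes most like a member.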

How the data were processed

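Tumour RNA was depleted of ribosomal RNA and sequenced in pairs of 150-base reads. Per the labels, the authors used FastQC (version 0.11.8), Trim Galore, HISAT2 (version 2.1.0) and featureCounts of Subread (version 1.6.3) with the GRCm38 build, and they deposited raw counts per gene. Ensembl identifiers were matched to GENCODE M21 for 55240 of 55423 features. The labels list 4 Ivl:BRAFV600E and 3 Ivl:BRAFV600E-SOX2LSL samples. Columns were assigned to a genotype by their names and the mouse identifiers listed by the study. The table held 3 columns named for the first genotype and 4 for the second. Of these 4, 1 was not among the listed mice, its genotype was uncertain, and it was not used, which left 3 tumours in each group. Nothing in the sources pairs them or names separate litters, and the p-values measure the spread between these tumours.

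Genes that reached 5 reads in any 1 tumour were fitted with edgeR's quasi-likelihood test (version 4.0.16, R 4.3.3) after TMM scaling, with Benjamini-Hochberg adjustment over all 24433 genes and a threshold of 0.05. Intervals are 95% intervals from that fit. CPM were divided by union exon length where genes were compared. The procedure was tested on simulated data. Alternatives were DESeq2 (version 1.42.0), limma-voom (version 3.58.1), other scalings and filters, sex as a covariate and leaving out each tumour. An exact permutation test of 3 against 3 tumours cannot go below 0.1 and was not used.

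The members and all lists were chosen with earlier results of these data known. Named genes were the 6 members, their antisense transcripts, up to 3 called genes per list and direction or the most abundant tested gene where none was called, the nearest tested coding gene on each side and all called genes within 250 kb of a pair, the 5 genes most like each member, and Sox2. A gene that this rule names for Dlx1 is not reported here. Counting error alone makes values under 3 reads uncertain.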

Additional observations from a re-analysis of the deposited data

How the results depend on the processing

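The log2 fold change of each of the 6 Dlx genes was negative in all 13 alternatives. Leaving out 1 tumour at a time gave -4.93 to -3.04 for Dlx1, -4.89 to -4.02 for Dlx2, -2.52 to -1.52 for Dlx3, -1.80 to -0.55 for Dlx4, -1.62 to -0.68 for Dlx5 and -4.04 to -1.33 for Dlx6. The value of -4.93 for Dlx1 came without tumour E and that of -4.04 for Dlx6 without tumour F. Without tumour D, the lowest tumour for each member, the values were -3.04, -4.02, -1.52, -0.68 and -1.33 for Dlx1, Dlx2, Dlx3, Dlx5 and Dlx6, and without tumour B the value was -0.55 for Dlx4. With the longest transcript as length, Dlx5 stood at 18.2 CPM per kb in Ivl:BRAFV600E tumours in place of 11.4. That length is 1423 bases for Dlx5 in place of 2263, while Dlx3 has 2607 bases either way. With it, Dlx5 would pass Dlx3 in tumour E and in the mean of the tumours with SOX2. The lead of Dlx3 over Dlx5 with SOX2 thus depends on the length used.

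The number of genes past the threshold varied more. It was 954 (369 lower, 585 higher) with edgeR, 3653 (1555 and 2098) with DESeq2, 2142 (970 and 1172) with limma-voom, 1759 (668 and 1091) with no filter on low counts and 228 (67 and 161) with sex as a covariate, while edgeR's own filter gave 560 lower genes. Leaving out 1 tumour at a time gave 22 (without A) to 1575 (without D) genes, with 10 to 730 lower and 12 to 845 higher. Of the list genes other than Dlx genes and their antisense transcripts, 12 passed with edgeR, 38 with DESeq2, 23 with no filter and 1 to 23 with 1 tumour left out. The cause was not tested.

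No paired analysis was possible because the groups were different mice and nothing in the sources pairs them. Dlx6 had 0 to 19 reads per tumour and Dlx4 8 to 57, and values under 3 reads are within counting error of 0.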
